A study of Danaus plexippus with 36 samples.

Results

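Antennae were compared with legs cut from the same adult monarch butterflies (Danaus plexippus). The comparison used 23 of the 35 libraries analysed, namely 11 antennal and 12 leg libraries, chosen by the tissue and the animal number in the labels. Both tissues were available from 11 animals, 6 females and 5 males. The leg library of male 2 had no antennal partner, since the antennae of that animal were not analysed here. The 22 paired libraries fell into batch 1, with 6 animals, and batch 2, with 5 animals. The question was which genes differ between antennae and legs of 1 animal, and which of these differences hold in both batches.

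The study measured messenger RNA in antennae, legs and proboscis of field-caught butterflies of both sexes, and its stated interest was in chemosensory genes. The labels name no treatment, and they describe the females as gravid. In the antennal and the leg group alike, batch 1 held males 13, 15 and 20 and females 18, 25 and 27. In batch 2 the antennal group held males 12 and 16 and females 11, 1 and 3, and the leg group held male 2 as well. Neither the age of the animals, nor which leg pairs were taken, nor what the batches stand for is stated in the labels.

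A butterfly's antennae carry most of its olfactory sensilla, the cuticular hairs that house odorant receptor neurons. In the monarch they also hold light-entrained circadian clocks that serve sun compass orientation. The legs are largely muscle and cuticle, and their tarsi bear contact chemosensory sensilla with which females taste milkweed before they lay eggs. RNA from a whole appendage is a mixture, so fewer cells of a type and less RNA per cell cannot be told apart.

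The gene models are named by identifiers that begin with DPOGS, and 0 of them matched the gene name table used (assembly MEX_DaPlex). Genes are therefore described by counts, levels and a few identifiers, with no name, role or location. The labels of the tissues could not be checked against marker genes for the same reason. Library depth is given in M, with 1 M standing for 1000000 counts. Antennae of batch 1 had 3.68 to 12.6 M (median 6.66 M) and legs of batch 1 had 11.7 to 15.2 M (median 14.2 M). Batch 2 antennae had 0.622 to 24.7 M (median 2.24 M) and batch 2 legs 35.6 to 117 M (median 59.1 M). Leg libraries were thus deeper than antennal ones in all 11 animals. They held 1.12 to 3.85 times as many counts in batch 1. In batch 2 the ratio was 2.73 in female 1, 6.50 in female 3, 15.9 in male 16, 55.1 in male 12 and 118 in female 11.

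Antennae and legs differed in a large part of the transcriptome. The split into higher and lower genes depended on scaling, thinning, the filter on low counts, the animal block and the animals used. Among 11804 genes tested within animals, 4832 (40.9%) differed at an adjusted p below 0.05 (edgeR quasi-likelihood test with the animal as a block, Benjamini-Hochberg adjustment over all genes). Of these, 2013 (17.1%) were higher and 2819 (23.9%) were lower in antennae. The median gene lay at a log2 fold change (antennae over legs) of -0.20 with the trimmed mean of M values (TMM), at 0.0053 with upper-quartile scaling and at -0.095 with DESeq2's size factors. With upper-quartile scaling 2422 genes were higher and 2301 lower, a share of 51.3% higher, against 41.7% with TMM. Thinned to 2 M counts per library, which leaves out female 11, 2113 were higher and 2087 lower (50.3% higher). Without female 1 the share was 32.4%. It was 33% without the filter on low counts (1656 higher and 3362 lower). Without the block for the animal it was 49%, and with DESeq2 47.6%.

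In batch 1 alone 3771 genes (31.9%) were called, 1548 (13.1%) higher and 2223 (18.8%) lower in antennae. Batch 2 alone gave 4675 genes (39.6%), 2116 (17.9%) higher and 2559 (21.7%) lower in antennae. Both batches called 2275 genes (19.3%) in the same direction, 871 (7.38%) higher and 1404 (11.9%) lower in antennae. These genes, referred to from here as shared genes, made up 60.3% of the calls of batch 1 and 48.7% of those of batch 2. All 2275 were also called in the fit over 11 animals. Both batches called 105 further genes (0.89%), in opposite directions. Of all 2380 genes called in both batches, 95.6% thus had the same direction.

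**Figure D1:**
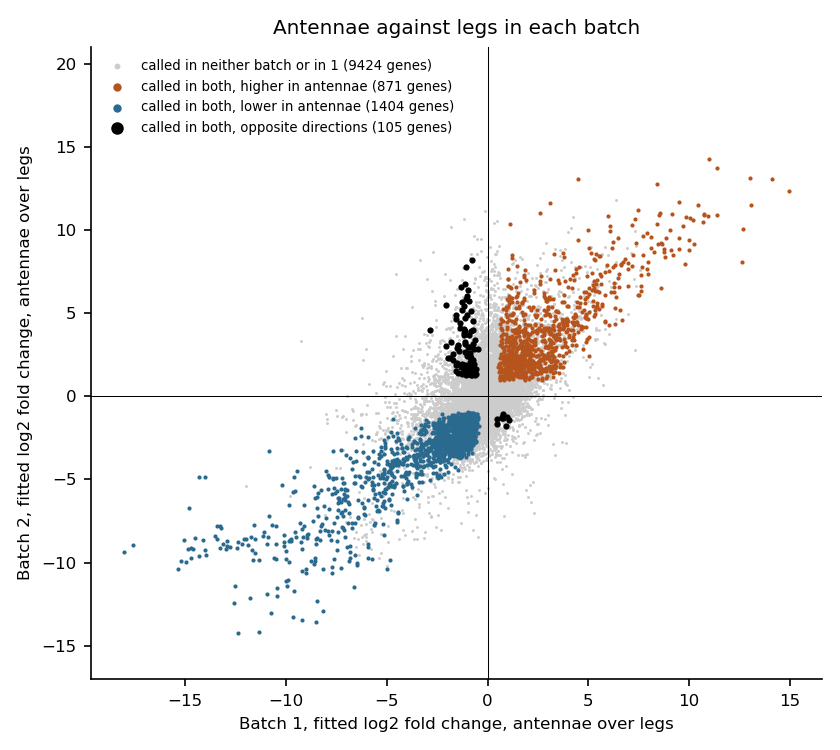
Fitted log2 fold change of antennae over legs in batch 1 (horizontal axis) and batch 2 (vertical axis), 1 point per gene tested, coloured by whether the gene was called in both batches with the same direction, in opposite directions, or otherwise. The 2275 shared genes lie at the lower left and the upper right, and the 105 genes of opposite direction lie mainly at the upper left.

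Across the 11804 genes, which are not independent replicates, the log2 fold changes of the batches had a Pearson correlation of 0.705. Among the 7297 genes with a mean of at least 10 counts scaled to a library total of 1000000 (CPM) over the 23 libraries it was 0.757. Shared genes with large changes were numerous. At least 2-fold in each batch were 759 of the 871 genes higher in antennae and 1148 of the 1404 lower ones. A change of at least 8-fold in each batch was found for 271 and 414 of them, and of at least 32-fold for 123 and 228. The smaller of both batches' log2 fold changes had a median of 1.91 in the higher set and -1.72 in the lower set.

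Absence or near absence of counts was compared between antennae and legs only, leaving proboscis aside. Only genes that reached a set level in the other tissue were included. With at least 10 CPM in the legs of each batch, 9 genes were without a count in all 11 antennal libraries. The reverse, no count in 12 leg libraries with at least 10 CPM in the antennae of each batch, was found for 3 genes. With a mean under 1 CPM in the lower tissue in place of no count, 77 genes were low in antennae and 101 were low in legs. Because leg libraries were deeper, 0 counts set a looser limit in antennae than in legs.

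Shared genes were more frequent at high levels, above all those lower in antennae. Genes were grouped by their mean in the higher tissue. Of 223 genes at 1000 CPM or more, 28 (12.6%) were shared and higher in antennae and 110 (49.3%) were shared and lower. Of 1813 genes from 100 to 1000 CPM, 280 (15.4%) were shared and higher and 618 (34.1%) were shared and lower. Of 5830 genes from 10 to 100 CPM the shares were 8.64% and 10.1%. Of 3241 genes from 1 to 10 CPM the shares were 1.82% and 2.72%. None of the 697 genes under 1 CPM was shared. Calls are easier to reach at high counts, and the part of this in the trend was not tested.

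The most abundant genes of the legs were nearly all lower in antennae. Of the 20 genes with the highest mean in legs, at 8317 CPM or more, 19 were called lower in antennae, 18 of them in both batches. Among the 20 most abundant genes in antennae, at 3018 CPM or more, 10 were called higher in antennae, 9 of them in both batches, 1 was called lower and 9 were not called. Of the 100 most abundant genes in legs 84 were called lower in antennae, and of the 100 most abundant in antennae 36 were called higher. Over all genes 23.9% were called lower and 17.1% higher. The lists were picked by level in the same libraries that made the calls, which favours these directions, so the counts are a description. The lists of 20 had 2 genes in common and the lists of 100 had 29.

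The shared genes took a large share of the leg transcriptome. The 1404 genes lower in antennae took 9.41% ± 1.25 of antennal counts (SD, n = 11) and 58.8% ± 4.57 of leg counts (SD, n = 12). The 871 genes higher in antennae took 22.4% ± 2.07 of antennal counts and 2.01% ± 0.457 of leg counts. These libraries chose the genes, so the gaps are a description without a test. The proboscis libraries helped set which genes passed the filter on low counts but did not enter the calls. There the lower set took 42.9% ± 4.67 and the higher set 5.76% ± 1.11 of the counts (SD, n = 12). Of the 1404 lower genes 1301 had a mean log2 level in proboscis between those of antennae and legs, and 822 (58.5%) lay nearer to legs. Of the 871 higher genes 769 lay between and 496 (56.9%) lay nearer to legs. Over all genes tested 52.1% lay nearer to legs. The share of all genes with a proboscis level between the others was not taken. The shared genes were called for a gap between antennae and legs, which favours a level between them. The counts of 1301 and 769 are therefore a description.

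Antennal levels of the genes higher in antennae varied more between animals than their leg levels did. Within batch 1 the median SD of the log2 level was 0.745 in antennae and 0.430 in legs, and within batch 2 it was 0.949 and 0.595. For the shared genes lower in antennae it was 0.505 in antennae and 0.481 in legs of batch 1, and 0.727 and 0.526 in batch 2. Antennal libraries were also the shallower ones, and the part of counting error in these values was not tested. Levels were taken as log2 of CPM plus 0.5, which narrows the spread of low levels. The genes higher in antennae were called as lower in legs, and the part of this offset in their leg values was not tested.

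Many shared genes went the same way in every animal. Over all genes, 798 (6.76%) were higher and 1699 (14.4%) were lower in the antennae of all 11 animals. Of the shared genes 644 and 1303 did so. The same animals made the calls, which favours a single direction, so the counts of shared genes are a description. Without any overlap between the 11 antennal and 12 leg libraries, 296 genes (2.51%) lay higher and 778 (6.59%) lower in antennae. The balance of these counts turned with the scaling. By library totals without TMM, 1783 genes were higher and 624 lower in every animal, and 626 lay above and 363 below without overlap.

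Each animal was left out in turn and the shared genes were called again without it. Genes with no difference between the tissues of the left-out animal were set aside. Of the rest, that animal followed the same direction in 90.2% at least (male 20) and 99.6% at most (male 13). In female 1, whose antennal library was the deepest, 2091 of 2106 genes (99.3%) did so.

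Genes chosen in a single batch were then measured in the animals of the other. Libraries of that other batch had no part in the calls but, like all libraries, entered the filter on low counts. Called at 8-fold or more in batch 1, 366 genes were higher in antennae. In batch 2 they took 12.2% ± 2.45 of antennal counts (SD, n = 5) and 0.508% ± 0.120 of leg counts (SD, n = 6). The 620 genes chosen in batch 1 as lower in antennae took 1.38% ± 0.374 of antennal and 37.4% ± 4.27 of leg counts in batch 2. The within-animal log2 ratios of antennae over legs, taken from TMM-scaled levels and not from the shares, averaged 3.92 ± 0.55 for the first set and -5.39 ± 0.62 for the second (SD, n = 5). All 5 animals showed both directions. The ratios were 2.40 and -2.87 with genes chosen at 2-fold, and 4.51 and -4.80 by share of all counts. Batch 2 called 320 of the 366 genes and 460 of the 620 in the direction of batch 1, and none in the opposite one.

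In the reverse transfer, from batch 2 to batch 1, the mean ratio of the higher set was smaller than that of the higher set chosen in batch 1, a difference that was not tested. The 776 genes chosen in batch 2 as lower in antennae took 2.96% ± 0.714 of antennal and 46.1% ± 6.68 of leg counts in batch 1 (SD, n = 6 each), a mean log2 ratio of -4.97 ± 0.26. The 1111 genes chosen in batch 2 as higher in antennae took 17.5% ± 3.24 of antennal and 3.75% ± 0.622 of leg counts in batch 1, a mean log2 ratio of 1.24 ± 0.36. All 6 animals showed both directions. With genes chosen at 2-fold the ratios were -2.92 for the lower and 0.98 for the higher set, and by share of all counts they were -3.98 and 2.22. Batch 1 called 574 of the 776 genes lower and none higher in antennae. It called 470 of the 1111 genes higher and 35 lower in antennae, and left 606 uncalled. In an exact sign-flip permutation test (2-sided), each set reached the smallest p its animals allow, 0.0625 for 5 animals and 0.0312 for 6. Adjusted over the 4 tests all were 0.0625, so none passed 0.05 and none could have.

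**Figure D2:**
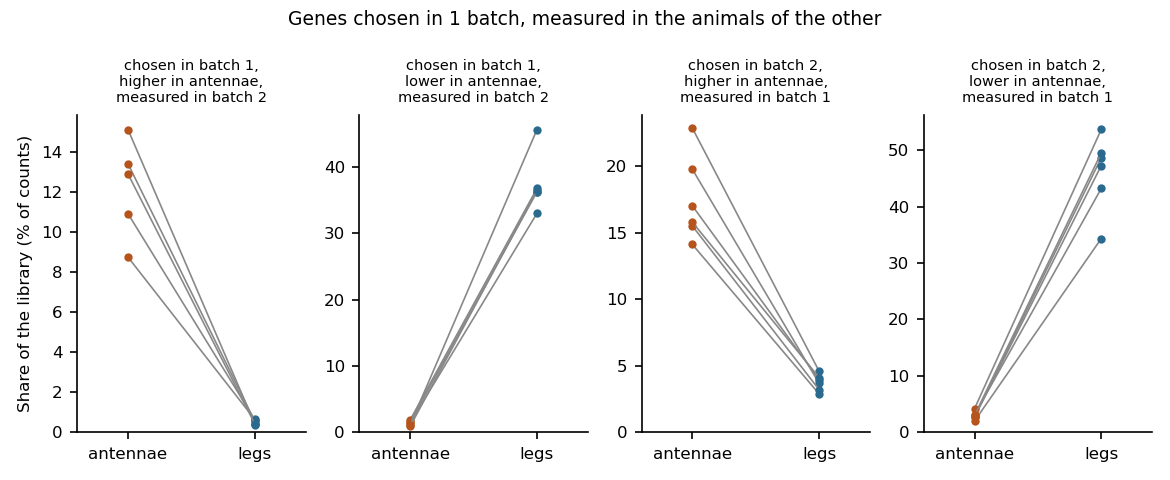
Share of each library's counts (percent, vertical axis) taken by genes called at 8-fold or more in 1 batch, in antennae and legs of the other batch, with a line joining the tissues of an animal. In each of the 4 panels the paired antennal and leg values lie apart in every animal, and of both sets higher in antennae, the 1111 genes chosen in batch 2 took the larger share of leg counts, 3.75%.

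Under the naming rule, the genes with the largest changes in both batches were DPOGS212737 and DPOGS203667, higher in antennae, and DPOGS206364 and DPOGS200972, lower in antennae. DPOGS212737 in batch 1 ranged from 61.9 to 8090 CPM in antennae (median 1211) and from 0 to 0.270 CPM in legs (median 0.112). In batch 2 it stood in the antennae at 427 CPM in female 11, 6352 in male 12, 4971 in male 16, 4301 in female 1 and 3483 in female 3, against 0.0227 to 1.80 CPM in legs (median 0.231). No leg library reached the lowest antennal one, although antennal levels varied widely between animals. The log2 fold change was 13.32 ± 0.78 (SE, n = 11 animals, edgeR adjusted p = 1.05e-08), at 14.13 in batch 1 and 13.04 in batch 2.

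DPOGS203667 ranged from 7.33 to 281 CPM (median 35.02) in batch 1 antennae and had no count in batch 1 legs. The antennae of batch 2 held 37.8 CPM in female 11, 65.2 in male 12, 1453 in male 16, 1228 in female 1 and 736 in female 3. In the legs of batch 2 it had 68 counts in male 12, 2 in female 3 and none in the other 4 libraries. Again the tissues did not overlap. The log2 fold change was 13.25 ± 1.05 (SE, n = 11 animals, edgeR adjusted p = 1.58e-07). It was 14.9 without male 12, 12.5 without male 16 and 12.2 without female 1.

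DPOGS206364 had 0 counts throughout the antennae. Its leg levels ran from 21.1 to 134 CPM (median 94.5) in batch 1 and from 2.31 to 57.4 CPM (median 9.08) in batch 2, so it was present in each of the 12 leg libraries. Against a floor of 3 counts over all antennal libraries it was at least 833-fold lower in antennae (edgeR adjusted p = 5.14e-05). Within the batches the bounds were 1629-fold and 186-fold. The bound of batch 2 rests on female 1 and was 53.7-fold without that animal.

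DPOGS200972 also had no count in antennae and was steadier in legs, from 41.1 to 89.6 CPM (median 64.8) in batch 1 and from 54.2 to 118 CPM (median 73.9) in batch 2. It was at least 2491-fold lower in antennae (edgeR adjusted p = 2.73e-05), with bounds of 1371-fold and 965-fold in batches 1 and 2 (329-fold in batch 2 without female 1). In proboscis it averaged 29.5 ± 11.0 CPM (SD, n = 12), between the other tissues.

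**Figure D3:**
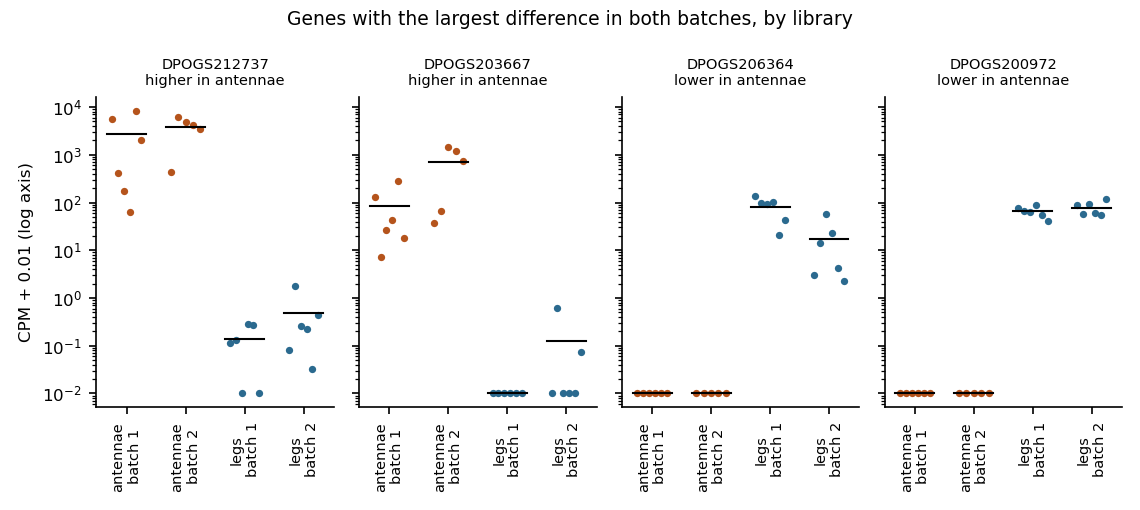
Level of the 4 genes with the largest changes shared by both batches, in CPM plus 0.01 on a log axis, with 1 point per library and antennae left of legs within each batch. Antennal and leg points do not overlap in any panel, and the points of DPOGS206364 and DPOGS200972 in antennae all stand for 0 counts.

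The size of the tissue difference itself depended on the batch for a smaller set of genes. The test of that difference, the batch by tissue interaction, called 1669 genes (14.1%; edgeR, adjusted p below 0.05). For 697 of them (5.9%) the difference was more towards antennae in batch 1, and for 972 (8.23%) more towards antennae in batch 2. It called 856 of the 2295 genes called in batch 2 alone and 261 of the 1391 called in batch 1 alone. For most genes called in a single batch a difference between the batches was therefore not shown. Of the 2275 shared genes, 382 had an interaction, which changed the size but not the direction of their difference. The 105 genes with opposite directions all had one.

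Of those 105 genes, 96 were lower in antennae in batch 1 and higher in batch 2. Their median level was 53.6 CPM in antennae and 125 CPM in legs of batch 1, and 65.5 CPM in antennae and 12.0 CPM in legs of batch 2. The leg medians thus lay much further apart than the antennal ones. The same held for the 972 genes with an interaction towards antennae in batch 2. Their medians were 41.4 CPM in antennae and 48.5 CPM in legs of batch 1, and 57.0 and 8.29 CPM in batch 2. In 905 of the 972 (93.1%) the difference between batches was larger in legs than in antennae, against 64.6% of all genes tested. Of the 697 genes with the other sign, 532 (76.3%) differed more in legs, with medians of 34.9 CPM in antennae and 34.1 CPM in legs of batch 1, and 23.01 and 75.02 CPM in batch 2.

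Library depth moved with part of this pattern. Of the 5 batch 2 animals, 4 had an antennal library under 6 M counts and a leg library over 35 M, so depth and tissue cannot be told apart in them. In batch 2 the 972 genes had medians of 3.14 to 13.5 CPM in the 6 leg libraries. Their antennal medians were 50.4 to 59.1 CPM in those 4 animals and 27.0 CPM in female 1, whose antennal library held 24.7 M counts. In proboscis they had a median of 6.73 CPM in female 1 at 53.7 M counts, 3.34 CPM in male 2 at 41.8 M and 25.4 CPM in female 3 at 37.0 M. The other 3 proboscis libraries of batch 2, at 19.2 M counts or fewer, had medians from 40.7 to 63.0 CPM. Among the legs of batch 2 the medians did not follow depth. They were 7.01 CPM in male 12 (117 M), 4.63 in female 11 (73.4 M) and 11.1 in female 1 (67.5 M). Male 2 (50.7 M) had 3.14 CPM, female 3 (35.7 M) 3.52 CPM and male 16 (35.6 M) 13.5 CPM. In batch 1, where no library passed 15.2 M, the medians ran from 35.8 to 50.1 CPM in all 3 tissues. These libraries called the genes, so the antennal and leg medians are a description, and the part of depth in the pattern was not tested.

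Each batch 2 animal was also set alone against the 6 animals of batch 1, an alternative chosen after seeing the data. The interaction was called for 1402 genes with female 3, 1093 with female 11, 984 with male 12 and 197 with male 16. With female 1, the animal with 2 deep libraries, edgeR called 0 genes, and 758 had an unadjusted p below 0.05, against 1735 to 3179 with the others. These fits take their spread from batch 1 and assume that the lone animal varies alike. Antennae of batch 2 varied more for the shared genes (median SD of 0.745 in batch 1 and 0.949 in batch 2 for the higher set, 0.505 in batch 1 and 0.727 in batch 2 for the lower set). The counts therefore describe single pairs of libraries and are not numbers of genes shown to differ in an animal. The part of noise from shallow libraries in them was not tested. Over the 7297 genes, the tissue differences of female 1 had a mean correlation of 0.765 with those of the batch 1 animals. The corresponding values were 0.6999 for male 16, 0.590 for male 12, 0.554 for female 3 and 0.510 for female 11. After thinning to 2 M counts they were 0.746, 0.688, 0.581 and 0.545 for the first 4, and female 11 was too shallow to be thinned.

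**Figure D4:**
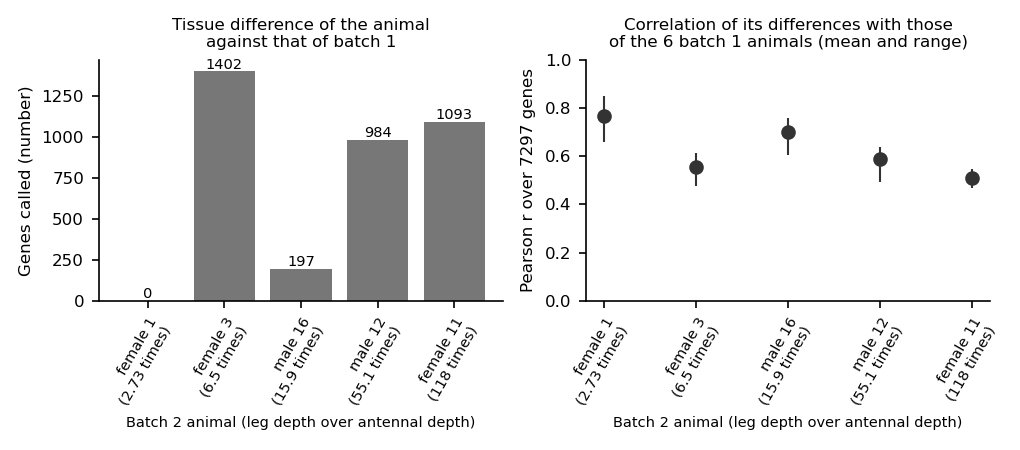
Left, number of genes called by edgeR when a single batch 2 animal was set against batch 1, a count that takes its spread from batch 1 alone and does not show that those genes differ. Right, Pearson correlation of that animal's tissue differences with those of the 6 batch 1 animals (point, mean, and line, range), with animals ordered by the ratio of leg to antennal depth. Female 1 has 0 calls and the highest mean correlation, 0.765.

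Most genes called in batch 1 kept their direction in each batch 2 animal, from 77.1% of those with a difference in female 3 to 90.7% in female 1. Without the 4 animals of unequal depth, the 7 animals left gave 4157 genes, 1794 higher and 2363 lower in antennae. As 6 of these 7 animals are those of batch 1, this fit is no separate check of the genes shared by both batches.

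The interaction genes chosen by the naming rule show how single libraries contributed. DPOGS205671 ranged from 0.782 to 863 CPM (median 117) in antennae of batch 1 and from 0 to 0.0827 CPM in the legs. The antennae of batch 2 held 21.4 CPM in female 11, 88.3 in male 12, 1260 in male 16, 966 in female 1 and 474 in female 3, against 0.307 to 2.77 CPM (median 1.33) in legs. It was higher in antennae in all 11 animals, and the interaction (batch 1 minus batch 2) was 5.18 ± 1.11 on the log2 scale (SE, adjusted p = 0.00906, edgeR). That value rests on 2 counts in batch 1 legs. It was 4.14 without female 25 (adjusted p = 0.0594, edgeR), 4.57 without female 11 and 5.93 without female 27.

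DPOGS200710 ranged from 8.06 to 19.9 CPM (median 10.7) in antennae and from 1.16 to 2.57 CPM (median 2.15) in legs of batch 1, without overlap. In batch 2 it had no count in the antennae of female 11, male 12 and male 16, 8.44 CPM in female 1 and 2.11 CPM in female 3. Legs of batch 2 held 1.38 to 10.6 CPM (median 2.96). The interaction was 4.97 ± 1.28 (SE, adjusted p = 0.0212, edgeR). It was 4.70 without female 3 (adjusted p = 0.0713, edgeR), 4.54 without male 16 (adjusted p = 0.0516, edgeR) and 6.27 without female 1.

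In the other direction, DPOGS207139 ranged from 0 to 11.3 CPM (median 8.44) in antennae and from 9.73 to 19.3 CPM (median 13.1) in legs of batch 1. In batch 2 the antennae held 8.81 CPM in female 11, 9.96 in male 12, 10.5 in male 16, 0.520 in female 1 and 4.63 in female 3, while all 6 leg libraries had no count. Leg levels were at least 1513-fold higher in batch 1 than in batch 2, and 1017-fold without male 12. Within batch 2 the legs lay at least 303-fold below the antennae, a bound of 172-fold without male 12 and 664-fold without female 1. The interaction passed with an adjusted p of 0.00288 (edgeR).

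DPOGS213086 ranged from 4.49 to 23.5 CPM (median 9.53) in antennae and from 5.58 to 18.7 CPM (median 12.5) in legs of batch 1. In batch 2 it stood in the antennae at 15.1 CPM in female 11, 29.9 in male 12, 48.4 in male 16 and 29.2 in female 3, and had no count in female 1. The 6 leg libraries of batch 2 held 4 counts in all. The interaction was -10.99 ± 0.83 (SE, adjusted p = 2.8e-05, edgeR). For both DPOGS207139 and DPOGS213086 the lowest batch 2 antennal level was that of female 1.

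**Figure D5:**
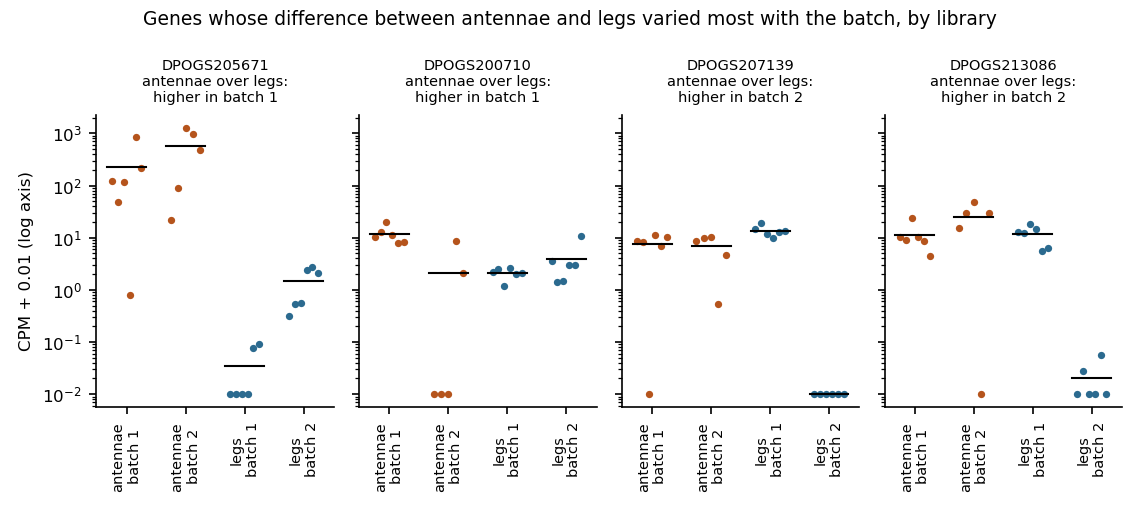
Level of the 4 genes named for the batch by tissue interaction, at most 2 per direction, in CPM plus 0.01 on a log axis. Each point is 1 library, with antennae left of legs. For DPOGS207139 and DPOGS213086 the batch 2 legs lie at or near 0 counts, while batch 1 legs range from 9.73 to 19.3 CPM and from 5.58 to 18.7 CPM.

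The tissue difference depended on sex for 1 gene (0.00847% of those tested, edgeR). The unadjusted p was below 0.05 for 323 genes (2.74%), and DESeq2 called 17. The gene was DPOGS209204. In females it ranged from 24.01 to 359 CPM (median 206) in antennae and from 41.0 to 1864 CPM (median 448) in legs, and the antennae were lower in all 6. In male antennae it stood at 203 CPM in male 13, 134 in male 15, 112 in male 20, 408 in male 12 and 1807 in male 16, against 0.813 to 14.9 CPM (median 5.33) in the 6 male legs. Antennae were higher in all 5 males, and the male tissues did not overlap. The interaction (female minus male) was -7.64 ± 0.61 on the log2 scale (SE, adjusted p = 6.7e-05, edgeR). Because each female was gravid, sex and reproductive state cannot be told apart.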

How the data were processed

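The authors deposited raw read counts per gene model (15130 rows), made from stranded mRNA libraries. Per the submitters' processing notes reads were handled with tools that include HISAT2 2.0.5, limma, FastQC 0.11.5 and featureCounts 1.5.2. With the genome build, annotation, strand setting and handling of multi-mapped reads not given in the sources used here, the counts of near-identical copies or antisense partners are uncertain.

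Tests were run with edgeR 4.0.16 in R 4.3.3. Its filterByExpr, given the 6 combinations of sex and tissue, kept 11804 genes and removed 3326, which held 0.0391% of all counts. Libraries were scaled by TMM. The paired fit used 22 libraries with the animal as a block. Batches were also fitted alone, and both interactions came from a fit with animal, tissue, tissue by batch and tissue by sex. CPM uses TMM-scaled totals, and SEs derive from the quasi-likelihood F statistic. P-values measure the spread between animals and were adjusted by the Benjamini-Hochberg method. Bounds use a floor of 3 counts over the group without counts, and cover counting error only. The code was tested on simulated data: of 100 genes changed by 3 log2 units in the paired comparison, on 11804 genes, 100 were recovered, and of 100 changed by 1 unit 64 were. For the batch by tissue interaction 188 of 200 genes changed by 3 units were recovered, with 6 false calls.

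The animal numbers pair the libraries because both tissues came from the same butterfly. Deviations of an animal's libraries from the means of tissue and batch had a median correlation of 0.188, above 0.1 in 10 of 11 animals. No 2 libraries of a tissue agreed within sampling noise (smallest chi-square per gene 19.3).

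At most 2 identifiers per direction were named. For the tissues they were called over 11 animals and in each batch, went one way in every animal, had at least 10 CPM in the higher tissue of each batch, and were ranked by the smaller batch change. For interactions they were called, had at least 10 CPM in 1 combination, and were ranked by size. Members and rules were chosen with earlier results of these data known. Marker lists were void because no identifier matched. Alternatives were DESeq2 1.42.0, limma 3.58.1 (voom with the animal as random block), other scalings, filters and thresholds, thinning to 2 M counts, each sex alone, no block, and each animal left out. The alternatives that set aside or single out batch 2 animals were chosen after seeing the data. Figures were drawn with matplotlib 3.10.9.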

Additional observations from a re-analysis of the deposited data

Results flagged for a closer look

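In 38 groups of 4 to 10 libraries, 10 single values stood apart by Dixon's criterion, some of them from the same library. Chance meets the criterion in about 1 of 20 groups of normally distributed values. Whether these levels are so distributed was not tested, so no excess over that rate is claimed. The legs of male 12 stood apart in both genes higher in antennae, at 1.80 CPM for DPOGS212737 and 0.619 CPM for DPOGS203667. They held 198 of the 244 leg counts of the first gene and 68 of the 70 of the second. Male 16 stood apart in its legs for DPOGS206364, at 57.4 CPM, and in its antennae for DPOGS209204, at 1807 CPM. In the legs of male 16 the genes chosen in batch 1 as lower in antennae took 45.6% of the counts, the highest of the batch 2 legs. Female 25 stood apart with 863 CPM of DPOGS205671 in its antennae and 504 CPM of DPOGS209204 in its legs. For DPOGS200710 the antennae of female 1, at 8.44 CPM, and the legs of female 3, at 10.6 CPM, stood apart from the rest of batch 2. The antennae of female 18 stood apart in batch 1 with 23.5 CPM of DPOGS213086.

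The tissue difference differed between the batches, by the interaction test, for DPOGS205671 (5.18, log2, batch 1 minus batch 2), DPOGS200710 (4.97), DPOGS207139 (-11.29, a fitted value that depends on the prior count because batch 2 legs held no count) and DPOGS213086 (-10.99). It differed between the sexes for DPOGS209204 (-7.64, female minus male).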

How the results depend on the processing

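Without the block for the animal 5790 genes were called (2836 higher and 2954 lower in antennae), 2622 in both batches with the same direction and 153 with opposite directions, and the batch by tissue interaction gave 2453. That changed no count of calls by over 1.5 times, and among the named genes it ended the call of DPOGS205671 (interaction 3.61, adjusted p = 0.211, edgeR). With all 35 libraries and no block 6081 were called. DESeq2 gave 241 genes of opposite direction, 2840 with a batch by tissue interaction and 17 with a sex by tissue interaction. Females alone gave 2544 genes (1154 higher, 1390 lower), males alone 2113 (761 and 1352), both with fewer animals. At an adjusted p below 0.01, 3196 genes were called (1287 higher), 1337 shared by both batches and 23 opposite. Unscaled totals gave 626 genes above and 363 below without overlap, and 1783 higher and 624 lower in every animal. Leaving out 1 animal gave 843 to 2151 interaction genes, the lowest without female 3 and the highest without female 1 (957 without female 25, 1038 without female 27). The genes of opposite direction ran from 59 (without female 3) to 123 (without female 1), all genes called from 4238 to 4983, and shared genes from 1847 to 2303. Against batch 1, female 11, male 12, male 16 and female 1 alone gave 1093, 984, 197 and 0 interaction genes, and the value of DPOGS213086 turned to 0.19 with female 1. Thinned to 2 M counts, which leaves out female 11, 1186 interaction genes and 82 genes of opposite direction were called. At full depth without female 11 these counts were 1124 and 77, so thinning itself lowered neither. After thinning, DPOGS205671 and DPOGS200710 lost their interaction call (3.52 and 4.07, adjusted p = 0.0839 and 0.055, edgeR), and DPOGS207139 and DPOGS213086 kept it at -7.84 and -8.78. The cause was not tested. Depth limits the antennal side, since 2 of 11 libraries held 2.12 M counts or fewer.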
